A study of Mus musculus with 16 samples.

Results

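Mouse macrophages grown from bone marrow were profiled for 9 genes of tryptophan catabolism and aryl hydrocarbon receptor signalling, out of 19938 genes with values. The 9 are Ido1, Ido2, Kmo, Kynu, Wars1, Ahr, Ahrr, Cyp1b1 and Tiparp, taken by gene symbol from the array annotation, where Wars1 carries its older symbol Wars. Each had 1 feature on the array with a single symbol, so none was left out. Pretreated cells were sampled at 0, 3 and 6 h, with 4 arrays at 0 h and 2 at each later time, and naive cells likewise. Pretreated cells carry a token for earlier interferon in their labels, with no dose, length or rest period stated there. Every group carried HA-tagged histone H3.3 knocked into the genome and was grown with L-cell conditioned medium. Per the labels the macrophages received interferon-gamma, a cytokine of T cells and NK cells that activates macrophages, and the hours are read as time since it was added. Neither the age or number of mice nor separate cultures are named, so each p-value reflects the spread of these arrays alone, which could be technical.

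Tryptophan is broken down along the kynurenine pathway, which starts with the dioxygenases Ido1 and Ido2 and goes on through Kmo and Kynu towards NAD. Interferon-gamma is the classical inducer of Ido1, and of Wars1, the enzyme that loads tryptophan onto its tRNA. Kynurenine is one of the ligands of Ahr, a transcription factor of the cytosol that enters the nucleus with its partner Arnt and switches on genes such as Cyp1b1 and its own inhibitors Ahrr and Tiparp.

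The 16 arrays came in 2 sets of 8, read from the numbering in the titles. Set 2 held the 3 h arrays and set 1 the 6 h arrays, each with 2 arrays of both 0 h groups. Every change from 0 h was taken within a set, since 0 h levels differed between sets. Set 1 exceeded set 2 by 1.22 (log2) for Ahr in pretreated and 1.82 in naive cells, and by 1.84 and 2.24 for Kmo, while the median of all genes differed by 0.37 and 0.35. Without unstimulated cells at the later times, an effect of interferon and one of hours in culture cannot be told apart. As a check of the treatment, Irf1 rose in naive cells by 2.93 ± 0.15 at 3 h and 2.26 ± 0.15 at 6 h (log2 change ± SE from limma). All 10 macrophage markers were bright (gene means of 10.88 to 13.84 in set 2). Of 8 dendritic cell markers, 7 had means under 6.5 in set 2 and 3 did in set 1, and 6.5 is the level called dim here. With whole cultures measured, fewer cells of a type and less RNA per cell cannot be told apart.

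**Figure D1:**
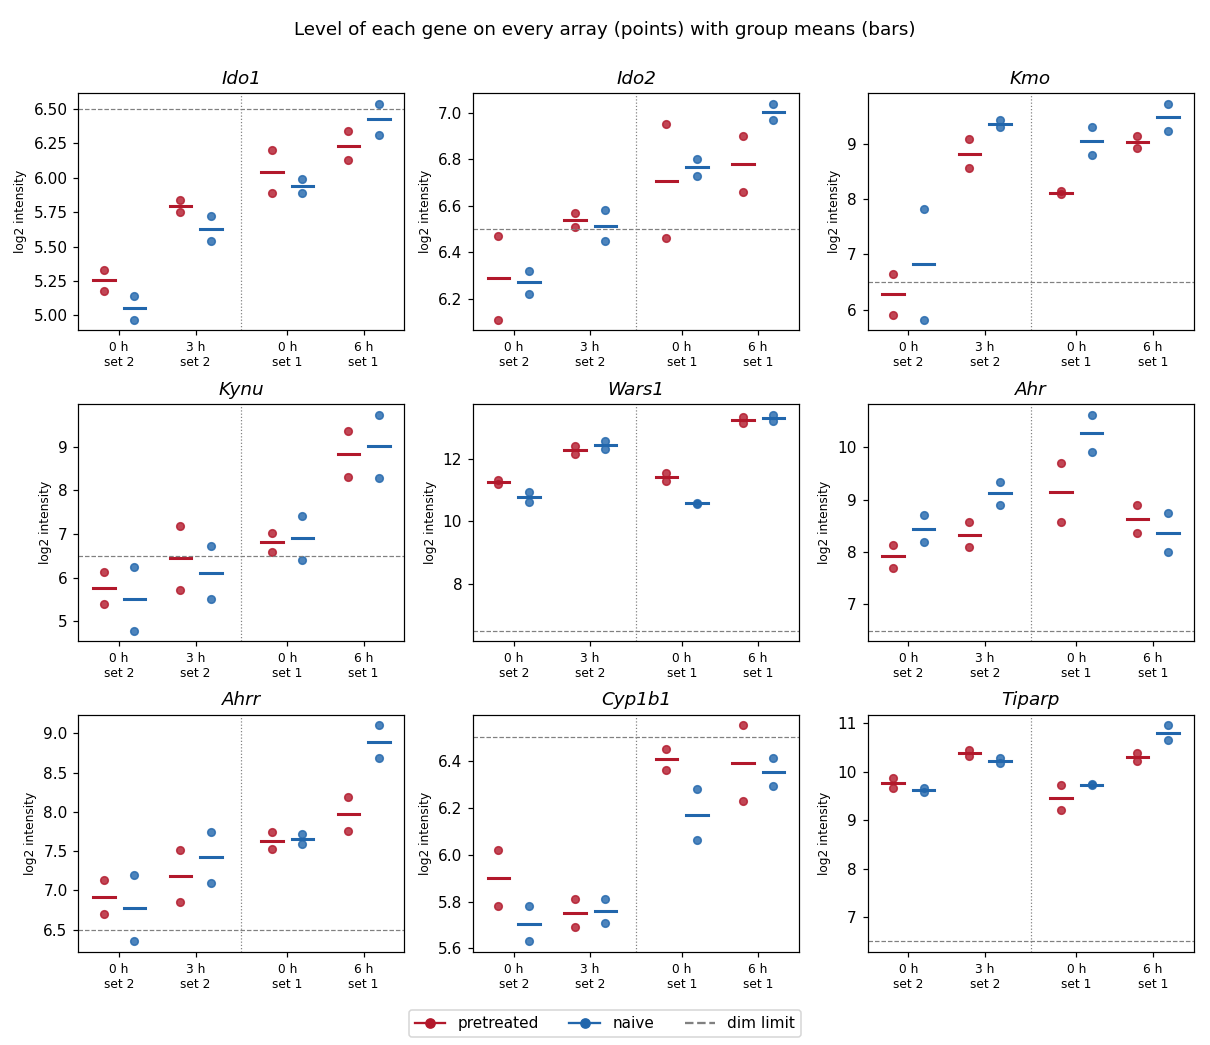
Deposited log2 intensity (vertical axes, own range per gene) of the 9 genes on each of the 16 arrays, by time and array set (horizontal axes). Points are arrays, bars are means of 2 arrays, and the dashed line is the dim limit of 6.5. Wars1 climbed in both sets, Kynu is high at 6 h, Kmo is lowest at 0 h in set 2, and Ido1 stays around or under the dim limit.

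Ido1, the enzyme that opens the tryptophan ring, was dim on nearly every array. In set 2 its level was 5.54 and 5.72 in naive cells at 3 h, against 4.97 and 5.14 at 0 h. In set 1 it was 6.31 and 6.54 in naive cells at 6 h, against 5.89 and 5.99 at 0 h. The naive groups did not overlap within either set, and the differences were small. Groups of 2 arrays can separate without any difference, and the share of all genes that did so was not counted. Whether groups overlap is therefore given here and below as a description. Ido1 rose by 0.57 ± 0.14 at 3 h (adjusted p = 0.0295 over 19938 genes, limma with Benjamini-Hochberg adjustment) and by 0.49 ± 0.14 at 6 h (adjusted p = 0.0274). The 3 h call was lost when any 1 of its 4 arrays was left out (adjusted p of 0.0676 to 0.254). The 6 h call was kept only without naive 6 h replicate 1, and reached adjusted p = 0.192 without naive 6 h replicate 2. Pretreated cells had 5.84 and 5.75 at 3 h against 5.33 and 5.18 at 0 h, a change of 0.54 ± 0.14 with adjusted p = 0.0652. At 6 h they had 6.13 and 6.34, against 6.20 and 5.89 at 0 h, a change of 0.19 ± 0.14 with a 95% interval of -0.11 to 0.49. Whether its signal was above background on any array was not tested. Dendritic cells are a known source of Ido1. Of their 8 markers, Clec9a (4.44 ± 0.39) and Xcr1 (1.10 ± 0.28) rose in naive cells at 6 h. The other 6 did not pass, and lay between -0.12 and 0.14, while 7.48% of all genes rose and 10.8% fell. The median change of the 8 was 0.00, while their mean level was 7.08 to 7.23 on naive 6 h arrays, against 6.39 to 6.56 on naive 0 h arrays of set 1. In pretreated cells at 6 h Clec9a (3.62 ± 0.39) passed alone, with a list median of 0.06. Of all genes, 2.89% rose and 2.76% fell there. The part of these markers in the Ido1 values was not tested.

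Ido2, its less active paralogue and chromosomal neighbour, did not pass in any comparison. Its changes from 0 h were 0.25 ± 0.16 in pretreated and 0.25 ± 0.16 in naive cells at 3 h, and 0.07 ± 0.16 and 0.24 ± 0.16 at 6 h. The widest reach of these intervals was 0.60 upwards, so a 2-fold rise in array intensity lies outside all of them. Its levels, between 6.11 and 7.04, straddled the dim limit, where a change in RNA can be hidden.

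Kmo, which turns kynurenine into 3-hydroxykynurenine, showed the largest 3 h change of the 9 genes in both kinds of cell. Its level was 9.08 and 8.57 in pretreated cells at 3 h, against 6.64 and 5.91 at 0 h in the same set. In naive cells it was 9.43 and 9.30 at 3 h, against 7.82 and 5.82 at 0 h. All 3 h arrays were above all 0 h arrays, and the naive 0 h arrays lay far apart. Kmo rose by 2.55 ± 0.48 in pretreated cells (adjusted p = 0.0112) and by 2.55 ± 0.48 in naive cells (adjusted p = 0.00626). The difference between these 2 changes was 0.01, with a 95% interval of -1.46 to 1.47. In naive cells, leaving out 1 of the 0 h arrays moved the change to 1.54 (without replicate 4) or 3.55 (without replicate 3). The call of pretreated cells was lost without pretreated 0 h replicate 4 (adjusted p = 0.135), pretreated 3 h replicate 1 (0.0908) or replicate 2 (0.0509). No fold is given, since 2 of the 4 arrays at 0 h in this set lay under the dim limit.

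At 6 h, against the brighter 0 h arrays of set 1, no change in Kmo passed. Pretreated cells had 9.14 and 8.93 at 6 h against 8.09 and 8.14 at 0 h (0.91 ± 0.48, adjusted p = 0.437). Naive cells had 9.23 and 9.73 at 6 h against 8.80 and 9.30 at 0 h (0.43 ± 0.48, 95% interval of -0.61 to 1.46). The stimulated levels of both sets were thus near each other, while the 0 h levels were apart, and nothing places the 2 sets on 1 scale. Time and array set cannot be told apart here.

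At 0 h Kmo had 8.09, 8.14, 6.64 and 5.91 in pretreated cells, against 8.80, 9.30, 7.82 and 5.82 in naive cells, replicates 1 to 4. Both pretreated arrays were under both naive arrays in set 1, and the groups overlapped in set 2. The difference was -0.94 ± 0.48 in set 1 and -0.54 ± 0.48 in set 2, and their mean of -0.74 ± 0.34 did not pass (adjusted p = 0.62, unadjusted p = 0.048). Without naive 0 h replicate 4 it was -1.24 and passed (adjusted p = 0.0124).

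Kynu, kynureninase, which cleaves kynurenine and 3-hydroxykynurenine, was the enzyme of the pathway with the largest 6 h change. Its level was 9.37 and 8.3 in pretreated cells at 6 h, against 7.02 and 6.60 at 0 h. In naive cells it was 9.74 and 8.28 at 6 h, against 7.41 and 6.40 at 0 h. Neither pair of groups overlapped, and replicates differed by more than a unit in most groups. Kynu rose in naive cells by 2.11 ± 0.67 (adjusted p = 0.0444), whereas the 2.03 ± 0.67 of pretreated cells had adjusted p = 0.121. The change differed between the 2 by -0.08, with a 95% interval of -2.13 to 1.96. The naive call was kept only without naive 6 h replicate 2. Leaving out replicate 1 of the same group gave 1.38 (adjusted p = 0.37). Over the 4 fits that left out an array it ran from 1.38 to 2.84. At 3 h Kynu changed by 0.68 ± 0.67 in pretreated and 0.60 ± 0.67 in naive cells, and neither passed. Its 3 h levels were 7.18 and 5.72 in pretreated and 6.72 and 5.51 in naive cells. All its 0 h arrays in that set lay under the dim limit, which can hide a change.

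The spread of Kynu followed the place of an array in its set. Arrays 1 to 4 of a set, called front arrays here, hold 1 array of each group and arrays 5 to 8, called back arrays, the other. The front array was higher in 8 of 8 pairs, by a median of 1.13. Across all genes 4.2% were higher on the front array in every pair. Among front and among back arrays the 6 h change of Kynu was 2.35 and 1.70 in pretreated cells, and 2.33 and 1.88 in naive cells. Fitted with front or back as a block, its change in pretreated cells passed (adjusted p = 0.000133). Ahr leaned the other way, lower on the front array in 7 of 8 pairs (median -0.51). What separated front from back is not stated in the labels.

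**Figure D2:**
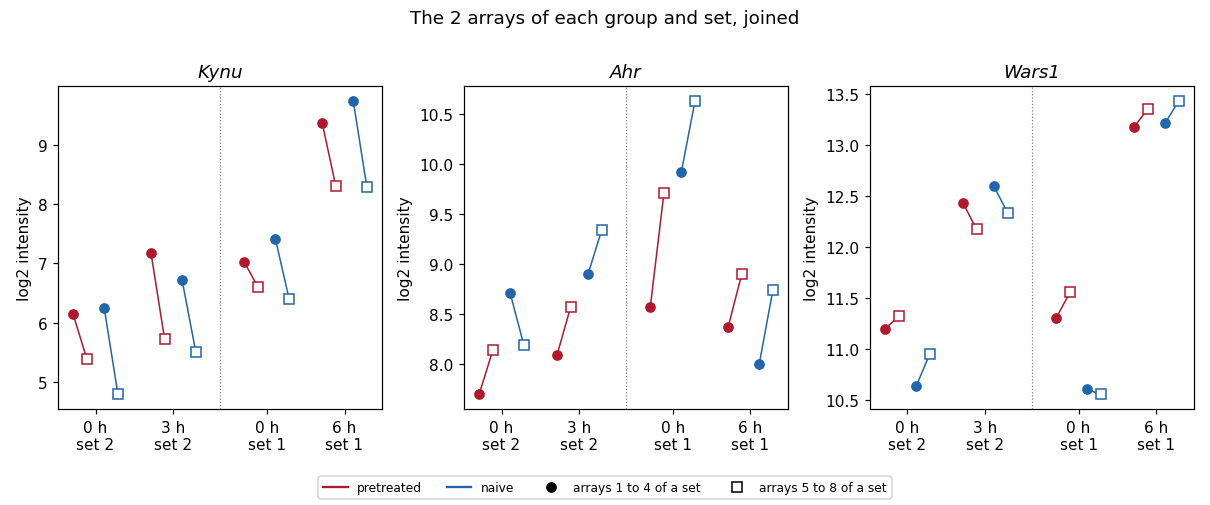
Log2 intensity (vertical axes) of Kynu, Ahr and Wars1, with the 2 arrays of each group and set joined by a line, by time and array set (horizontal axes). Filled circles are front arrays (1 to 4 of a set) and open squares back arrays (5 to 8). The Kynu lines all slope down from front to back, 7 of 8 Ahr lines slope up, and Wars1 lines are short beside its changes with time.

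Wars1 gave the firmest response of the 9 genes. Its level was 12.43 and 12.17 in pretreated cells at 3 h, against 11.19 and 11.32 at 0 h. In naive cells it was 12.59 and 12.33 at 3 h, against 10.63 and 10.95 at 0 h. At 6 h it was 13.17 and 13.35 in pretreated cells, against 11.30 and 11.55 at 0 h, and 13.21 and 13.43 in naive cells, against 10.60 and 10.55 at 0 h. Stimulated and 0 h arrays did not overlap in any of the 4 changes. In pretreated cells Wars1 rose 2.06-fold at 3 h (log2 1.04 ± 0.15, adjusted p = 0.00246) and 3.57-fold at 6 h (1.83 ± 0.15, adjusted p = 3.87e-05). In naive cells it rose 3.18-fold at 3 h (1.67 ± 0.15, adjusted p = 2.52e-05) and 6.7-fold at 6 h (2.75 ± 0.15, adjusted p = 3.93e-07). Each of the 4 calls held with any 1 of its arrays left out.

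Wars1 was also the single gene of the 9 that differed between pretreated and naive cells at 0 h, before new stimulation. It had 11.30, 11.55, 11.19 and 11.32 in pretreated cells, against 10.60, 10.55, 10.63 and 10.95 in naive cells, replicates 1 to 4. All 4 pretreated arrays were above all 4 naive arrays. It was 1.58-fold higher in pretreated cells (0.66 ± 0.11, adjusted p = 0.00847), and all 8 fits that left out an array kept the call. The difference was 0.85 in set 1 and 0.47 in set 2. After stimulation the levels met, at -0.16 (95% interval of -0.49 to 0.18, pretreated minus naive) at 3 h and -0.06 (-0.39 to 0.28) at 6 h. The response of pretreated cells minus that of naive cells was -0.63 ± 0.22 at 3 h and -0.91 ± 0.22 at 6 h, and neither difference passed over all genes (adjusted p = 1 and 0.171, unadjusted p = 0.0136 and 0.00122).

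Beside Wars1, other cytosolic aminoacyl-tRNA synthetases moved less. Of 17 measured, 2 rose and none fell in naive cells at 3 h, where 3.37% of all genes rose and 2.09% fell (median log2 change of the 17 -0.06), Farsa by 0.84 ± 0.16 and Kars by 0.55 ± 0.13. At 6 h 8 rose and 1 fell in naive cells, where 7.48% of all genes rose and 10.8% fell (median 0.53, against -0.01 for all genes). By their older symbols in the files these included Yars at 1.25 ± 0.19 and Rars at 0.99 ± 0.17, and the fall was Qars at -0.57 ± 0.13. In pretreated cells none of the 17 passed limma's test at 3 h or 6 h, with medians of -0.10 and 0.09, while 3 and 4 had an unadjusted p under 0.05. Of all genes, 1.86% rose and 0.998% fell in pretreated cells at 3 h, and 2.89% and 2.76% at 6 h. Of 7 genes of uncharged-tRNA sensing, the transcription factor Atf4 rose in naive cells at 6 h (1.01 ± 0.22) and the sensor kinase Eif2ak4 fell (-0.75 ± 0.12). The pseudokinase Trib3 rose in naive cells at 3 h (0.95 ± 0.22). In pretreated cells it changed by 0.54 ± 0.22 at 3 h, and none of the 7 passed at 3 h or 6 h.

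Counted over the 9 genes, 4 rose and none fell in naive cells at 3 h, where 3.37% of all genes rose and 2.09% fell. At 6 h 5 rose and 1 fell in naive cells, against 7.48% and 10.8% of all genes. In pretreated cells 2 rose at 3 h, where 1.86% of all genes rose and 0.998% fell, and 2 rose at 6 h, against 2.89% and 2.76%. None of the 9 fell in pretreated cells. The median log2 change of the 9 was 0.54 at 3 h and 0.34 at 6 h in pretreated cells, and 0.62 and 0.49 in naive cells, with medians of all genes within 0.03 of 0. In the plot of changes from 0 h, filled points mark what passed.

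**Figure D3:**
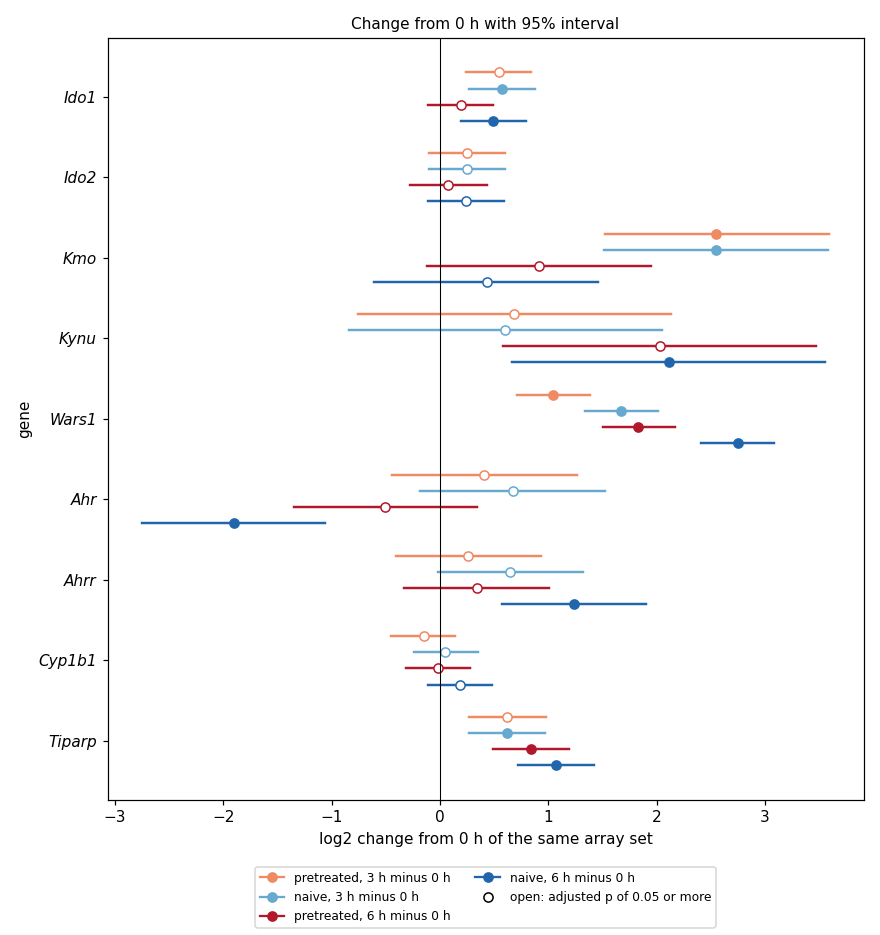
Log2 change from 0 h of the same array set (horizontal axis) for each of the 9 genes (vertical axis), with 95% intervals from the fit to all 16 arrays. Filled points passed an adjusted p of 0.05 and open points did not. Wars1 lies right of 0 in all 4 changes, Kmo in the 3 h changes, and Ahr lies left of 0 at 6 h in naive cells.

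Ahr, the receptor itself, fell in naive cells at 6 h. Its level was 8.0 and 8.74 at 6 h, against 9.92 and 10.63 at 0 h in the same set, with no overlap. The level at 6 h was 0.267 times that at 0 h (-1.90 ± 0.39, adjusted p = 0.00415), and the change was -1.92 among front and -1.89 among back arrays. The call was lost in 2 of 4 fits that left out an array. Leaving out naive 0 h replicate 2 gave -1.55 (adjusted p = 0.0535), and leaving out naive 6 h replicate 1 gave -1.53 (adjusted p = 0.0554). In pretreated cells Ahr had 8.37 and 8.90 at 6 h, against 8.57 and 9.71 at 0 h. These arrays overlapped, and the change was -0.51 ± 0.39 (95% interval of -1.35 to 0.34). The changes at 6 h differed between pretreated and naive cells by 1.40 ± 0.55, which did not pass (adjusted p = 0.426, unadjusted p = 0.0258).

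At 3 h Ahr leaned upwards without passing. It had 8.09 and 8.57 in pretreated cells at 3 h against 7.70 and 8.14 at 0 h (0.41 ± 0.39), and 8.90 and 9.34 in naive cells at 3 h against 8.71 and 8.19 at 0 h (0.67 ± 0.39). The 6 h change of naive cells differed from their 3 h change by -2.57 ± 0.55 (adjusted p = 0.0381), where 1.05% of all genes were lower and 0.682% higher. Wars1 passed the same comparison in the other direction (1.07 ± 0.22, adjusted p = 0.0298). Each time point lies in its own set, and naive Ahr at 0 h was 10.27 in set 1 and 8.45 in set 2. Both calls depend on single arrays, with adjusted p up to 0.174 for Ahr and 0.149 for Wars1, each without naive 0 h replicate 4.

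At 0 h Ahr was at 8.57, 9.71, 7.70 and 8.14 in pretreated cells, against 9.92, 10.63, 8.71 and 8.19 in naive cells, replicates 1 to 4. Pretreated arrays were lower in both sets, by 1.14 in set 1 and 0.53 in set 2 on average. The mean difference of -0.83 ± 0.28 did not pass over all genes (adjusted p = 0.315, unadjusted p = 0.0104), and passed with front or back as a block (adjusted p = 0.0122).

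Among targets of Ahr, Ahrr and Tiparp passed in naive cells at 6 h and Cyp1b1 did not. Cyp1b1 lay around or under the dim limit, which can hide a change. The promoters of these 3 are shown because they are textbook targets whose values differ here. Capitals mark the core of the motif bound by Ahr and Arnt, GCGTG, or its reverse complement. The sequences are RefSeq's on GRCm38.p6 and hold the 250 bases before the annotated start. Ahrr lies on the minus strand at chr13:74292332-74292581, Tiparp on the plus strand at chr3:65528197-65528446 and Cyp1b1 on the minus strand at chr17:79715062-79715311.
Ahrr: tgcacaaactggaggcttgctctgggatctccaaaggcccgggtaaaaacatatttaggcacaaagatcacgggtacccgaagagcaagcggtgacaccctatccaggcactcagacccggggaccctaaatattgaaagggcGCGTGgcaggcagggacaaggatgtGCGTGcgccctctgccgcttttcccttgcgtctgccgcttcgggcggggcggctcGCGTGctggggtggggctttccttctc
Tiparp: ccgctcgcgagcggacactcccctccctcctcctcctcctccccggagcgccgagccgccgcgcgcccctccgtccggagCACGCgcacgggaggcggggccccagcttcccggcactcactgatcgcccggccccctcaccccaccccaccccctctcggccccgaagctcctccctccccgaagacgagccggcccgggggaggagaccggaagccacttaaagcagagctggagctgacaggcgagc
Cyp1b1: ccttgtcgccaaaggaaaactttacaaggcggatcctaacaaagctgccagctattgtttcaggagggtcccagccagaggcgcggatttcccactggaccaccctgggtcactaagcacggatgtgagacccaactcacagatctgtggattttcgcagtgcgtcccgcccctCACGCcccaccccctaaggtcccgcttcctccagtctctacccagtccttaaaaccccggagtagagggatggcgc
The core occurred at 3 places in Ahrr and at 1 each in Tiparp and Cyp1b1. Of 32851 annotated start windows of this length, 28.2% hold it on either strand, so a match is common and is no more than a description of these letters. Promoters were matched for 4 of the 9 genes. The fourth, Kmo, held neither this core nor the interferon motifs TTCNNNGAA (in 7.02% of windows) and GAAANNGAAA (in 2.98%), searched on both strands.

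Ahrr, the repressor that competes with Ahr for Arnt, rose in naive cells at 6 h. Its level there was 8.69 and 9.10, against 7.59 and 7.72 at 0 h, with no overlap. The rise was 2.35-fold (1.24 ± 0.31, adjusted p = 0.0134). It was called in 1 of 4 fits that left out an array, with adjusted p of up to 0.102 without naive 6 h replicate 2. In pretreated cells Ahrr had 7.76 and 8.19 at 6 h, against 7.53 and 7.74 at 0 h, a change of 0.34 ± 0.31 (95% interval of -0.33 to 1.01). At 6 h both pretreated arrays were under both naive arrays, with differences of -0.92 among front and -0.91 among back arrays. This difference of -0.92 ± 0.31 did not pass over all genes (adjusted p = 0.212), and passed with front or back as a block (adjusted p = 0.00295). At 3 h the change was 0.26 ± 0.31 in pretreated and 0.65 ± 0.31 in naive cells.

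Tiparp, which attaches ADP-ribose to Ahr and dampens it, rose at both times in naive cells. Its level was 10.18 and 10.29 at 3 h, against 9.58 and 9.66 at 0 h, and 10.96 and 10.66 at 6 h, against 9.72 and 9.76 at 0 h. The rise was 1.54-fold at 3 h (0.62 ± 0.16, adjusted p = 0.0445) and 2.1-fold at 6 h (1.07 ± 0.16, adjusted p = 0.000521). The 3 h call was lost without any 1 of its 4 arrays (adjusted p of 0.134 to 0.26), and the 6 h call was kept without each. Pretreated cells had 10.33 and 10.45 at 3 h, against 9.66 and 9.87 at 0 h (0.62 ± 0.16, adjusted p = 0.0655). At 6 h they had 10.39 and 10.23, against 9.21 and 9.73 at 0 h, and Tiparp rose 1.79-fold (0.84 ± 0.16, adjusted p = 0.00832). That call was lost without pretreated 0 h replicate 1 (adjusted p = 0.0626) or pretreated 6 h replicate 1 (0.0915). At 6 h pretreated cells were at -0.50 ± 0.16 relative to naive cells, which did not pass (adjusted p = 0.189).

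Cyp1b1, a monooxygenase of foreign compounds and steroids, passed over all genes in no comparison. Its levels ran from 5.63 to 6.55, around the dim limit at most. Its 4 changes from 0 h lay between -0.15 and 0.18, and the widest of their intervals reached from -0.45 to 0.48. Of 8 other measured targets of Ahr, among them Cyp1a1, Cyp1a2 and Nqo1, none passed limma's test in the changes from 0 h of either kind of cell. Of all genes, 3.37% rose and 2.09% fell in naive cells at 3 h, and 7.48% and 10.8% at 6 h. In pretreated cells these shares were 1.86% and 0.998% at 3 h, and 2.89% and 2.76% at 6 h. At an unadjusted p under 0.05 there was 1 of the 8 targets in naive cells at 3 h and 0 in the other 3 changes. In set 1 6 of these 8 were dim, as were 5 in set 2, and dim features can hide a change. Of 4 measured partners and chaperones of Ahr, the chaperones Hsp90aa1 (0.90 ± 0.20) and Ptges3 (0.78 ± 0.19) rose in naive cells at 6 h.

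Between pretreated and naive cells, 1 of the 9 genes was called at 0 h (0.808% of all genes were higher and 0.155% lower), namely Wars1. None was called at 3 h (0.015% of all genes) or 6 h (0.702%) by limma's adjusted p. An unadjusted p under 0.05 in limma was reached by 4 at 0 h (Wars1, Ahr, Kmo and Cyp1b1), 0 at 3 h and 2 at 6 h (Ahrr and Tiparp). The share of all genes at that unadjusted limit was not counted, and the shares in this paragraph are for adjusted p. The differences of responses gave no call at 3 h (0.0802% of all genes) or 6 h (0.145%), with 1 and 2 genes at an unadjusted p under 0.05. The change at 6 h set against that at 3 h gave none in pretreated cells either (0.0201% of all genes), with 2 genes at an unadjusted p under 0.05.

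**Figure D4:**
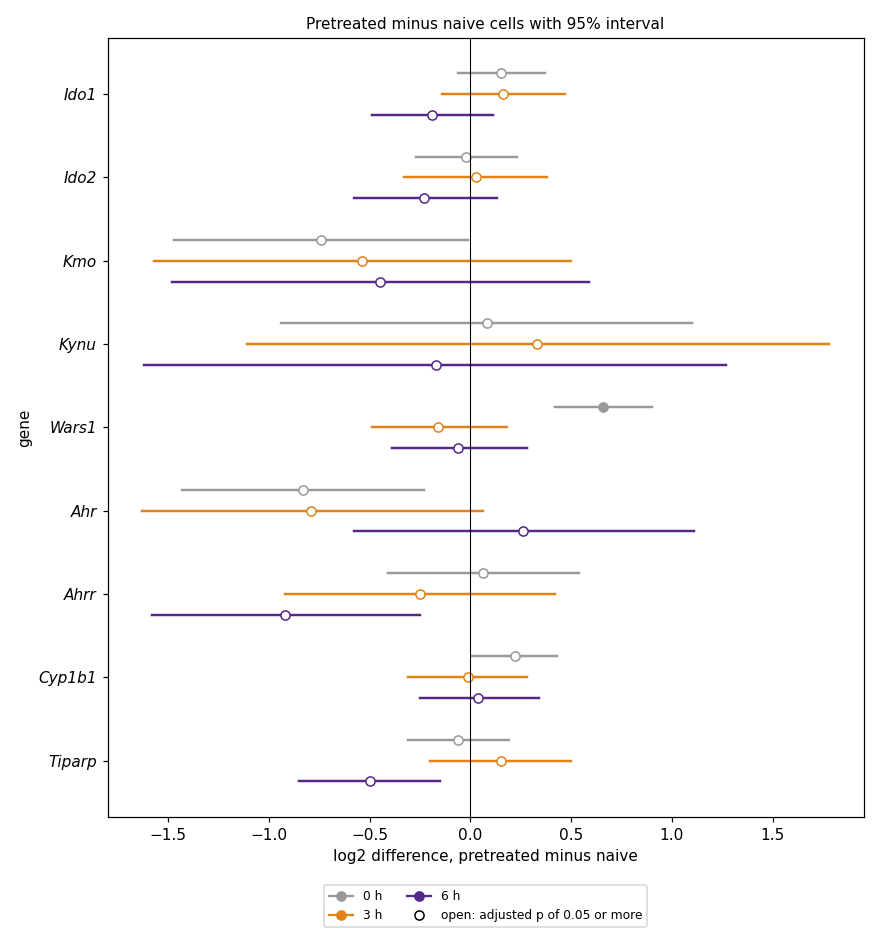
Log2 difference of pretreated minus naive cells at 0 h, 3 h and 6 h (horizontal axis) for each of the 9 genes (vertical axis), with 95% intervals. The single filled point, which passed an adjusted p of 0.05, is Wars1 at 0 h. Its 3 h and 6 h intervals cover 0, and the 6 h intervals of Ahrr and Tiparp lie left of 0 without passing over all genes.

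Around the 9 genes, few others of the kynurenine route passed. In naive cells 1 of 9 rose and none fell at 3 h (3.37% and 2.09% of all genes). At 6 h 1 rose and 1 fell there (7.48% and 10.8%). In pretreated cells none passed at 3 h (1.86% and 0.998%), and 1 rose at 6 h (2.89% and 2.76%). At 0 h 1 was higher in pretreated than in naive cells (0.808% of all genes) and none lower (0.155%). Of 9 other measured pathway genes, the aminotransferase Kyat3, which diverts kynurenine to kynurenic acid, rose in naive cells at 3 h (0.78 ± 0.17) and 6 h (1.11 ± 0.17), and in pretreated cells at 6 h (0.70 ± 0.17). Its relative Kyat1 fell in naive cells at 6 h (-0.95 ± 0.12). Haao, which acts after Kynu on the way to quinolinate, was higher in pretreated than in naive cells at 0 h (0.79 ± 0.14, adjusted p = 0.0165). Of 6 tryptophan transporters, the aromatic amino acid carrier Slc16a10 fell at 3 h in pretreated (-1.13 ± 0.18) and naive cells (-1.50 ± 0.18), and in pretreated cells at 6 h (-0.88 ± 0.18). Slc36a4 fell in naive cells at 6 h (-0.54 ± 0.14), and Slc7a5, a chain of the large neutral amino acid transporter, passed in no change. In each change from 0 h 1 of the 6 transporters fell and none rose, beside the same shares of all genes.

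NAD can also be made by salvage. Of 11 measured genes of NAD synthesis and use, Nampt, the rate-limiting salvage enzyme, rose at 3 h in pretreated (0.99 ± 0.14) and naive cells (1.68 ± 0.14), and at 6 h in both (1.21 ± 0.14 and 1.84 ± 0.14). The riboside kinase Nmrk1 fell in naive cells at 3 h (-0.78 ± 0.19) and 6 h (-1.35 ± 0.19), and in pretreated cells at 6 h (-0.82 ± 0.19). Parp1, a large consumer of NAD, fell at 6 h in pretreated (-0.70 ± 0.16) and naive cells (-1.09 ± 0.16). In naive cells 2 of the 11 rose and 1 fell at 3 h (3.37% and 2.09% of all genes), and 2 rose and 3 fell at 6 h (7.48% and 10.8%). In pretreated cells 1 rose and none fell at 3 h (1.86% and 0.998% of all genes), and 1 rose and 2 fell at 6 h (2.89% and 2.76%). The median change of the 11 was -0.02 at 3 h and 0.06 at 6 h in pretreated cells, and -0.09 and -0.12 in naive cells.

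The genes most like each of the 9 were ranked by Pearson correlation over the 16 arrays, with each set centred on its own mean, among 13108 genes at or above the dim limit. Arrays of a set share their normalization, so the values are a description. Wars1 was most like Dbnl (r = 0.986), Parp3 (0.985) and Dusp10 (0.976). Kmo was most like Csf2rb (0.962), Fcho2 (0.956) and Bbx (0.937), and Kynu like Anxa4 (0.958), Rnf14 (0.951) and Klra3 (0.948). Tiparp had Usp7 (0.968), Ppp1r15b (0.967) and Phf6 (0.961) closest, and Ahr had Eps8 (0.934), Txnip (0.924) and Pde7a (0.916). For Ahrr, Ido1, Ido2 and Cyp1b1 the closest gene was Atp1b3 (0.886), Hspa2 (0.915), Gfi1b (0.947) and Gm10640 (0.859), in that order. Among the 9 themselves the highest correlation was that of Wars1 with Tiparp (0.85) and the lowest that of Kynu with Ahr (-0.61). Centring by set left differences between front and back arrays in these values, and Kynu and Ahr leaned opposite ways between them.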

How the data were processed

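Biotin-labelled total RNA from 16 macrophage samples was read on Affymetrix MoGene 1.0 ST arrays, per the labels. The deposited table holds log2 intensities made by the authors for 35557 features on 16 arrays, a scale read from the values. How background was corrected and probes were summarised or normalized is not given in the sources used here. Column medians were 7.151 to 7.226 in set 1 and 6.886 to 6.997 in set 2, so each set may have been normalized on its own, and no 2 arrays were identical. The number of arrays limits the precision.

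Features with 1 symbol (21789) were named through the platform annotation, and the brightest feature of a gene was used, which gave 19938 genes. A limma fit (version 3.58.1, R 4.3.3) gave every group 1 mean in each set (residual df 8, prior df 4.26). Changes from 0 h stayed inside a set, the 6 h against 3 h change set one such change against another, and 0 h differences were the mean of both sets. Benjamini-Hochberg adjustment covered all 19938 genes, with calls at 0.05. The SE comes from this fit to all arrays, so it also holds spread outside a comparison. The fit was also run on simulated data with independent noise for each array. That noise held no shift shared by front or back arrays, so the run cannot show how such a shift moves the calls.

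Named are the 9 genes, the list members with the largest changes past the threshold, an interferon check and the closest genes by correlation. Qars, Cyp1a1, Cyp1a2, Nqo1, Slc7a5 and Prm1 were named after their values were seen. Genes and lists were chosen with earlier results of these data known. Alternatives were an additive term for the set, front or back position (arrays 1 to 4 or 5 to 8) as a block, a dim filter at 6.5, the mean of features, quantile normalization, trend and robust variance, array weights, the arrays of the set alone, a 2-fold limit and each array left out, after which a group left with 1 array is assumed to vary like the others. The array weights were equal for the 2 arrays of each group and set, so that setting weighs groups and not single arrays. No label pairs arrays by a replicate number. Figures used Python 3.11.15 with matplotlib 3.10.9.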

Additional observations from a re-analysis of the deposited data

Results flagged for a closer look

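In naive cells the later and the earlier change were unequal for Wars1 (1.07 ± 0.22 on the log2 scale, 6 h change minus 3 h change) and for Ahr (-2.57 ± 0.55), as tested within the limma fit. Each time was run in its own array set, so neither value can be told apart from a difference of the sets.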

How the results depend on the processing

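Of 576 log2 changes of the 9 genes refitted with 1 array left out, 539 kept their side of the threshold, 35 lost a call, 2 gained one and none turned its direction with a call. Of 761 under the other settings 738 kept it, 9 lost a call and 14 gained one. Most values in both totals had no call to lose, so the totals do not give the share of calls that held. With arrays left out in turn, the genes called of the 9 were 2 (naive, 3 h), 2 to 4 (naive, 6 h), 1 to 2 (pretreated, 3 h and 6 h), 1 to 2 (pretreated against naive, 0 h) and 0 to 3 (naive, 6 h against 3 h change), and 0 in the other comparisons. Pretreated cells at 3 h had 4 calls with an additive set term or with front or back position as a block, and 1 with array weights, against 2. With the block there were also 2 at 0 h against 1, 1 against 0 for pretreated against naive cells at 6 h and for the difference of responses at 6 h (Ahrr), and 4 against 2 for naive 6 h against 3 h change, which had 1 with trend and robust variance. Deviations from group means correlated between front arrays, and between back arrays, of a set at 0.152 to 0.662 in set 1 and 0.082 to 0.644 in set 2, all above 0 over 6 pairs of groups per set. The lowest fell short of the level asked of every pair, so the values in the report are without the block, and the calls that it adds depend on that choice. A 2-fold limit left 2 at 3 h in naive, 1 at 6 h in pretreated cells and 0 at 0 h. Each set alone gave 0 at 0 h, with fewer arrays. Of 308 list counts 297 stayed within 1.5 times. The cause was not tested where none is named. Dim levels limit Ido1, Ido2, Cyp1b1, the 0 h values of Kmo in set 2 and the values of Kynu in set 2.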

Other observations

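Prm1, a sperm protamine among the genes restricted to other tissues, rose in pretreated cells by 1.23 ± 0.17 at 3 h and 1.55 ± 0.17 at 6 h, and in naive cells by 0.82 ± 0.17 and 1.14 ± 0.17. It was the single gene of that list of 11 to pass in these changes. Of all genes, 1.86% rose and 0.998% fell in pretreated cells at 3 h, and 2.89% and 2.76% at 6 h. In naive cells these shares were 3.37% and 2.09% at 3 h, and 7.48% and 10.8% at 6 h.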
